A study of Mus musculus with 48 samples.

Results

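The 10 genes described here belong to STAT3 signalling and its feedback by suppressors of cytokine signalling (SOCS). They are the transcription factor *Stat3*, the kinases *Jak1* and *Jak2*, the interleukin-4 receptor chain *Il4ra*, the feedback inhibitors *Socs1*, *Socs2*, *Socs3* and *Cish*, and the target genes *Pim1* and *Sbno2*. They were chosen by symbol, and all 10 were found among the 24973 genes of the deposited table. The mice were adult wild-type C57BL/6 males with a transient filament occlusion of the right middle cerebral artery for 1 h and 23 h of reperfusion. The neurovascular unit (NVU) was sorted into microglia (MG), astrocytes (AC), pericytes (PC) and endothelial cells (EC) from the ipsilateral, ischemic hemisphere and from the contralateral hemisphere, which served as control. Each of the 8 groups held 6 RNA-sequencing libraries, each from the pooled cerebra of 3 to 4 mice, so the control cells came from brains with a stroke and not from unoperated animals. CD45, a blood cell antigen, was used to leave blood cells out of the EC, PC and AC sorts, while MG were sorted as CD11b-positive cells with low CD45.

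Cytokines such as interleukin-6, leukemia inhibitory factor and oncostatin M bind receptors that activate Janus kinases. The kinases phosphorylate STAT3, which then enters the nucleus and switches on target genes. SOCS proteins and CISH are made in response to STAT activity and dampen the receptors and kinases, which closes a feedback loop. In the injured brain, STAT3 is known for its role in reactive astrocytes, and the interleukin-4 receptor, which signals mainly through STAT6, for its role in alternative activation of microglia and macrophages.

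STAT dimers bind DNA at the palindrome TTCNNNGAA, which reads the same on both strands. Of the 10 genes, 9 had a promoter in the RefSeq promoter set of the build GRCm38.p6, which covers 300 bases around each start, most of them before it. *Socs2* had none. The letters TTCNNNGAA were found in at least 1 promoter of *Socs3*, *Sbno2* and *Cish* and in none of *Stat3*, *Jak1*, *Jak2*, *Il4ra*, *Socs1* and *Pim1*, while 8.3% of all 32851 promoters held them. The form with 1 more base in the middle, TTCNNNNGAA, which STAT6 can bind, was found in 6.95% of all promoters and in none of the 9 genes. The shares are of single promoters, while *Sbno2* and *Pim1* each had more than 1 promoter in the set. A match is a description of the letters and not a binding site. The stretches with a match are shown because they belong to the feedback gene with the highest level, to the gene called in the most cell types and to a feedback gene at a low level. They are written 5′ to 3′ on the strand of the gene, with the match in capitals.
Socs3, chr11:117969497-117969580, minus strand, match starting 154 bases upstream of the start: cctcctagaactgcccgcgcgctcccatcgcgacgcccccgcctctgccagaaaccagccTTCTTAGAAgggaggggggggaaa
Sbno2, chr10:80102705-80102788, minus strand, match starting 26 bases upstream of a start: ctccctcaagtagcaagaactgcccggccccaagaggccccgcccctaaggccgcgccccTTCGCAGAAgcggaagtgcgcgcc
Sbno2, chr10:80101188-80101271, minus strand, match starting 24 bases upstream of another start: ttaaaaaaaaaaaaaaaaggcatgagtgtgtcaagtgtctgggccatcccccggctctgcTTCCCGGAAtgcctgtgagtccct
Cish, chr9:107296599-107296678, plus strand, matches starting at base 1 and base 12 of the transcript: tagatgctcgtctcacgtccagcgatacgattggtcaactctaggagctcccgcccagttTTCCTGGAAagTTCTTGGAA
*Socs3* held 1 match and *Cish* 2. *Sbno2* held 1 match at each of 2 of its starts.

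The deposited values, called normalized counts below, are rounded read counts per gene after division by the DESeq2 size factor of the library. They summed to between 10549900 and 16942165 per library, and from the spacing of low values the libraries held an estimated 4900000 to 17100000 reads on genes, with a median of 11850000. A count of 3 reads, taken as the floor, was worth at most 7.1 normalized counts in any library, a limit that covers counting error only. The titles of 12 libraries, those of ipsilateral PC and MG, name the opposite cell type from the column names of the table. The column names were used, and all 16 defining markers of the 4 cell types were higher in each library of their own cell type than in any other library. Over 15003 genes, 3 libraries stood apart from the rest of their group. Contralateral EC replicate 2 had a mean Pearson's r of 0.8 with its group (others 0.851 to 0.896), ipsilateral EC replicate 1 of 0.832 (others 0.874 to 0.886) and ipsilateral MG replicate 2 of 0.846 (others 0.892 to 0.918). Where they decide a value of the 10 genes, the value without them is given as well.

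RNA of other cells was present in the sorts. The summed level of 10 microglial marker genes, as a share of that in MG of the same hemisphere, was 2.39% to 16.4% in ipsilateral EC, 3.88% to 19.5% in ipsilateral PC and 1.80% to 8.11% in ipsilateral AC of replicates 1 to 4. In replicates 5 and 6 it was 0.215% to 0.248%, 0.120% to 0.159% and 0.349% to 0.411%. In contralateral libraries of replicates 1 to 4 it was 1.61% to 7.16% in EC, 0.182% to 5.24% in PC and 0.713% to 6.48% in AC. Values within replicates 1 to 4 and within replicates 5 and 6 are therefore given for several genes. In AC the summed level of 4 oligodendrocyte markers was 31112 to 283903 in contralateral and 59775 to 350941 in ipsilateral libraries, higher in 3 of 6 pairs, beside 57129 to 114614 and 41095 to 121715 for the 4 astrocyte markers. In PC the summed level of 4 smooth muscle markers was 305671 to 472420 in contralateral and 140102 to 323604 in ipsilateral libraries, with 0 of 6 pairs and 0 of 4 genes higher, and that of the 4 pericyte markers was higher in 1 of 6 pairs. The part of these cells in the levels and changes of AC and PC was not tested.

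The levels of the 10 genes in the contralateral hemisphere are described before the stroke change. The level differed among the 4 cell types for 10 of 10 genes (limma, F-test over the contralateral groups of all 48 libraries, Benjamini-Hochberg adjusted p between 6.41e-12 for *Il4ra* and 0.00830 for *Jak2*). This was true of 78.7% of all genes tested, so a difference in level is the usual case. Between single pairs of cell types the contralateral level differed for 35.4% of genes in EC against PC, 50.1% in EC against AC, 42.6% in EC against MG, 46.3% in PC against AC, 48.9% in PC against MG and 51.7% in AC against MG. Per kilobase of exon, which allows genes to be compared, *Socs3* had the highest mean of the 10 genes in EC, PC and MG, with 846 normalized counts per kb in EC, 3747 in PC and 5729 in MG. In AC the means of *Socs3* and *Stat3* were 401 and 308 per kb and their medians 328 and 313. The amount that RNA of microglia would bring, the marker share of each library times the mean level in MG, was 28.9% of the AC mean of *Socs3* and 2.92% of that of *Stat3*. The lowest means were those of *Cish* and *Pim1* in AC, at 6.18 and 6.86 per kb, and of *Socs2* in MG, at 7.86 per kb. No test was made between genes.

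*Stat3*, the transcription factor that gives the pathway its name, lies on chromosome 11 from 100885098 to 100939540 in GRCm38. Its contralateral level was highest in PC, at 7293 ± 2327 normalized counts (SD, n = 6), against 4238 ± 462 in MG, 3836 ± 1370 in EC and 2938 ± 625 in AC. PC exceeded MG (adjusted p = 0.0243), while MG, EC and AC did not differ beyond their spread. *Jak1*, a kinase of many cytokine receptors on chromosome 4 from 101152367 to 101265282, was highest in MG (4835 ± 358), 2.01-fold above PC (adjusted p = 4.05e-05), and PC, EC and AC followed without a difference between neighbours, except that EC exceeded AC with the replicate block (adjusted p = 0.0425, and 0.0802 without it). Farther apart in that order, PC exceeded AC for *Jak1* (adjusted p = 0.0344). *Jak2*, its relative on chromosome 19 from 29251828 to 29313080, had means from 220 in MG to 446 in EC, and no neighbours in the order differed beyond their spread. EC exceeded AC and MG for *Jak2* (adjusted p = 0.00465 and 0.00758).

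*Il4ra*, the ligand-binding chain of the interleukin-4 and interleukin-13 receptors on chromosome 7 from 125552120 to 125579474, had the widest range. It was at 5754 ± 1021 in MG, 1316 ± 498 in EC, 258 ± 104 in PC and 195 ± 162 in AC. MG stood 4.67-fold above EC (adjusted p = 0.000457) and EC 5.04-fold above PC (adjusted p = 0.000334), while PC and AC did not differ beyond their spread (adjusted p = 0.324).

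The feedback inhibitors had different orders. *Socs3*, which blocks receptors of the interleukin-6 family and lies on chromosome 11 from 117966079 to 117969186, was at 14620 ± 6831 in MG and 9562 ± 5332 in PC, which did not differ beyond their spread (adjusted p = 0.252). EC followed at 2160 ± 1348, below PC by 4.93-fold (adjusted p = 7.78e-05), and AC at 1023 ± 524. *Socs2*, a regulator of growth hormone signalling on chromosome 10 from 95411490 to 95416857, had its highest mean in EC and its lowest in MG. It was at 576 ± 110 in EC, 107 ± 37.5 in PC, 46.2 ± 38.6 in AC and 26.3 ± 21.6 in MG, with EC above PC (adjusted p = 0.00223) and PC above AC (adjusted p = 0.00959). AC and MG did not differ beyond their spread. *Cish*, which acts mainly on STAT5 and lies on chromosome 9 from 107296026 to 107302784, had its highest mean in EC (248 ± 76.6) and means between 39.7 and 79.8 elsewhere, and no neighbours differed beyond their spread. EC exceeded PC and AC for *Cish* (adjusted p = 0.00306 and 0.0123). *Socs1*, which blocks Janus kinases directly and lies on chromosome 16 from 10783808 to 10785536, had means between 39.3 in AC and 102 in PC, with no difference between neighbours. PC and MG both exceeded AC for *Socs1* (adjusted p = 0.00224 and 0.00886).

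The target genes were both highest in MG. *Pim1*, a survival kinase on chromosome 17 from 29490812 to 29496111, was at 290 ± 186 in MG (289.5 before rounding), 3.47-fold above EC (adjusted p = 0.00145), and lowest in AC at 22.7 ± 13.3. *Sbno2*, a transcriptional regulator induced by STAT3 downstream of interleukin-10 in macrophages, lies on chromosome 10 from 80056992 to 80104370. It was at 1887 ± 432 in MG, 1090 ± 472 in EC, 922 ± 320 in PC and 466 ± 208 in AC. MG exceeded EC (adjusted p = 0.0297) and PC exceeded AC (adjusted p = 0.00950), while EC and PC did not differ beyond their spread.

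**Figure D1:**
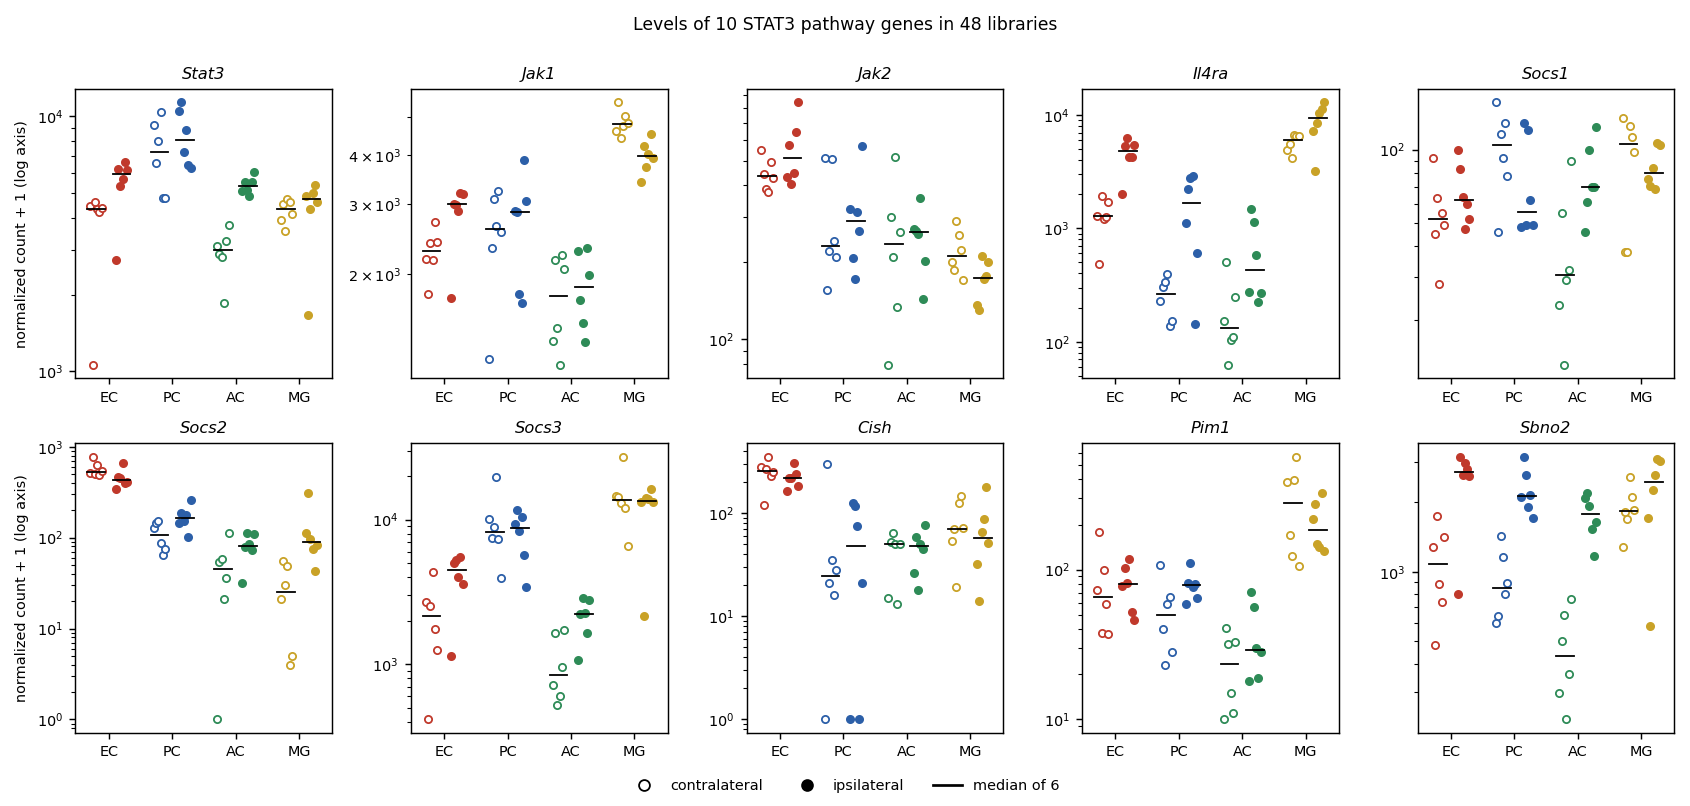
Normalized counts plus 1 (log axis, a range of its own in each panel) of the 10 genes in EC, PC, AC and MG, with contralateral libraries as open circles, ipsilateral libraries as filled circles, replicates 1 to 6 from left to right and a bar at the median of 6. *Sbno2* in PC and AC, *Stat3* in AC and *Il4ra* in EC have hemispheres that do not overlap, and single low libraries stand apart in EC and MG.

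Hemispheres were then compared within each cell type. A gene was called regulated when the adjusted p was no higher than 0.05, the fold change at least 1.5 in either direction, and each of the 6 libraries of a hemisphere held more than 10 normalized counts. All 10 genes passed the filter on low values, a mean of at least 10 normalized counts, in all 4 cell types. In EC 1 of the 10 genes was regulated, *Il4ra*, against 0.491% of 13242 genes. In PC it was *Sbno2*, again 1 of 10, against 1.02% of 13597 genes. In AC 2 of 10 were regulated, *Stat3* and *Sbno2*, against 0.341% of 15264 genes. In MG 1 of 10 was regulated, *Socs2*, against 10.6% of 13300 genes. These shares are 65 genes in EC, 139 in PC, 52 in AC and 1404 in MG. The paper called more genes in each cell type with DESeq2 at the same limits of fold change and adjusted p. A gene not called here may therefore still have changed. All 5 calls were increases in the ipsilateral hemisphere, and increases were called for 0.362% of all genes in EC, 0.441% in PC, 0.334% in AC and 4.29% in MG. Hemispheres did not overlap for 1 of the 10 genes in EC, 1 in PC, 2 in AC and 0 in MG, against 2.06%, 1.93%, 0.898% and 8.56% of all genes. The median log2 fold change of the 10 genes was 0.32 in EC, 0.17 in PC, 1.02 in AC and -0.17 in MG, beside -0.03, -0.04, -0.06 and -0.18 for all genes tested.

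**Figure D2:**
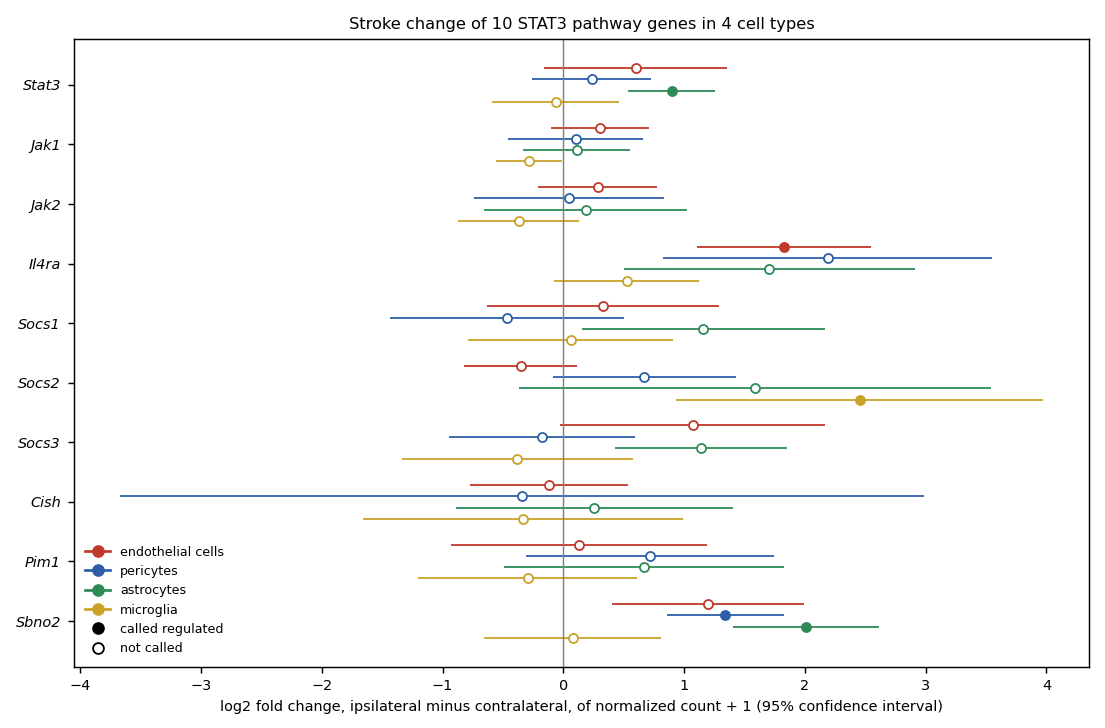
Log2 fold change of normalized count + 1 (ipsilateral minus contralateral) of the 10 genes in the 4 cell types, with 95% confidence intervals from limma (6 libraries per hemisphere). Filled points are the 5 called changes, and those of *Sbno2* lie at 1.34 in PC and 2.01 in AC beside 0.08 in MG.

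*Stat3* rose in AC. It was at 1858, 2986 and 3746 normalized counts in the lowest, median and highest contralateral library and at 4868, 5327 and 6047 in the ipsilateral ones. The hemispheres did not overlap, and 6 of 6 pairs rose. The mean rose from 2938 ± 625 to 5365 ± 420 (SD), a log2 fold change of 0.90 ± 0.17 (SE, n = 6 per hemisphere, limma adjusted p = 0.0395). The call was lost without replicate 1, 2, 3, 4 or 5, with adjusted p between 0.0724 and 0.221 and log2 fold changes between 0.80 and 0.93. It was also lost in the joint fit of all 48 libraries (adjusted p = 0.152) and without the filter on low values. Within replicates 1 to 4 (log2 fold change 0.98) and within replicates 5 and 6 (0.73) it was lost too. Together, 9 of 17 alternatives lost the call.

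In the other cell types *Stat3* was not called. In EC it was at 1055, 4345 and 4615 (median 4344.5) in the contralateral and at 2738, 5916 and 6605 in the ipsilateral libraries. The 2 low values are those of the libraries that stand apart, and without them the log2 fold change was 0.44 with adjusted p = 0.0479, below the fold minimum, against 0.60 (adjusted p = 0.541) with them. In PC, where the level was highest, the log2 fold change was 0.23 (adjusted p = 0.670, 95% confidence interval -0.26 to 0.73). In MG it was -0.06 (adjusted p = 0.887, interval -0.59 to 0.46), with 5 of 6 pairs higher and ipsilateral replicate 2 at 1654 beside 4321 to 5361 in the others. Without that library it was 0.19 (adjusted p = 0.260).

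The kinases moved little. *Jak1* in MG was at 4404, 4782 (4781.5) and 5431 in the contralateral and at 3422, 3977 (3976.5) and 4527 in the ipsilateral libraries. The ranges overlap, and all 6 pairs were lower ipsilaterally, but the log2 fold change of -0.28 ± 0.13 (SE) did not pass (adjusted p = 0.160). In EC, PC and AC its log2 fold changes were 0.30, 0.10 and 0.11. *Jak2* had log2 fold changes of 0.28 in EC, 0.05 in PC, 0.18 in AC and -0.37 in MG, with adjusted p between 0.321 and 0.964. Its value was lower in 5 of 6 MG pairs.

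*Il4ra* rose in EC. It was at 487, 1274 (1273.5) and 1930 normalized counts in the contralateral and at 2002, 4764 (4763.5) and 6244 in the ipsilateral libraries. The hemispheres did not overlap, and 6 of 6 pairs rose. The level was 3.55-fold higher, a log2 fold change of 1.83 ± 0.34 (SE, adjusted p = 0.0281). Without the 2 libraries that stand apart it was 1.79 with adjusted p = 0.000808. The call was lost without replicate 3, 4, 5 or 6 (log2 fold changes of 1.84 to 1.86, adjusted p between 0.0936 and 0.139), within replicates 1 to 4 (1.89, adjusted p = 0.231) and in the joint fit (adjusted p = 0.0535).

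In PC *Il4ra* was at 138, 264 (263.5) and 396 in the contralateral and at 143, 1675 (1674.5) and 2898 in the ipsilateral libraries. The ranges overlap through ipsilateral replicate 5, at 143. The log2 fold change was 2.19 ± 0.63 (SE, adjusted p = 0.114), and with the replicate number as a block the gene was called (adjusted p = 0.0329), which made 2 called genes of 10 against 1.66% of all genes. It averaged 2.77 over pairs 1 to 4 (called within them, adjusted p = 0.0210) and 0.05 and 1.99 in pairs 5 and 6. In AC the values were 61, 130 and 499 in the contralateral and 222, 427 and 1482 in the ipsilateral libraries, with 6 of 6 pairs higher, a log2 fold change of 1.71 and adjusted p = 0.365. The AC change averaged 2.28 over pairs 1 to 4 and was 1.02 and 0.12 in pairs 5 and 6.

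In MG, where *Il4ra* was most abundant, it was at 4210, 6062 and 6673 in the contralateral and at 3221, 9397 and 12882 in the ipsilateral libraries. Only ipsilateral replicate 2, which stands apart over all genes, lay within or below the contralateral range. The log2 fold change of 0.52 ± 0.28 (SE) did not pass (adjusted p = 0.240). Without that library it was 0.79 with adjusted p = 0.00601, which passes all 3 criteria.

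Since *Il4ra* is highest in MG, its level in the other sorts was set beside the amount that RNA of microglia would bring, the marker share of each library times the mean level in MG of the same hemisphere. In ipsilateral libraries that amount was 11.5% of the mean measured in EC, 46.4% in PC and 47.0% in AC, and in contralateral libraries 11.2%, 33.0% and 59.7%. In EC the measured level was above that amount in 6 of 6 libraries of each hemisphere, and in pairs 5 and 6, with a share of at most 0.248%, *Il4ra* was higher by 1.75 and 1.66 on the log2 scale beside a mean of 1.89 in pairs 1 to 4. In PC and AC the part of microglial RNA in the difference was not tested. For *Sbno2* the amount was 3.03% to 8.26% of the measured mean in EC, PC and AC. Markers of neutrophils and of monocytes and macrophages were also higher in ipsilateral libraries. The summed level of 8 neutrophil markers was 31 to 1610 in contralateral and 98 to 9888 in ipsilateral EC (6 of 6 pairs higher, 6 of 8 genes with a higher mean, *Camp* at 0 in all 12 libraries), 0 to 1270 and 41 to 13038 in PC (5 of 6 pairs, 7 of 8 genes) and 1 to 909 and 218 to 5178 in AC (6 of 6 pairs, 8 of 8 genes). The summed level of 6 monocyte and macrophage markers was 210 to 6621 and 428 to 17132 in EC, 14 to 3855 and 16 to 32613 in PC, and 59 to 2549 and 413 to 7077 in AC, higher in 5 of 6 pairs of each. Their part in the changes was not tested. In bulk libraries, fewer cells of a type and less RNA per cell cannot be told apart.

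**Figure D3:**
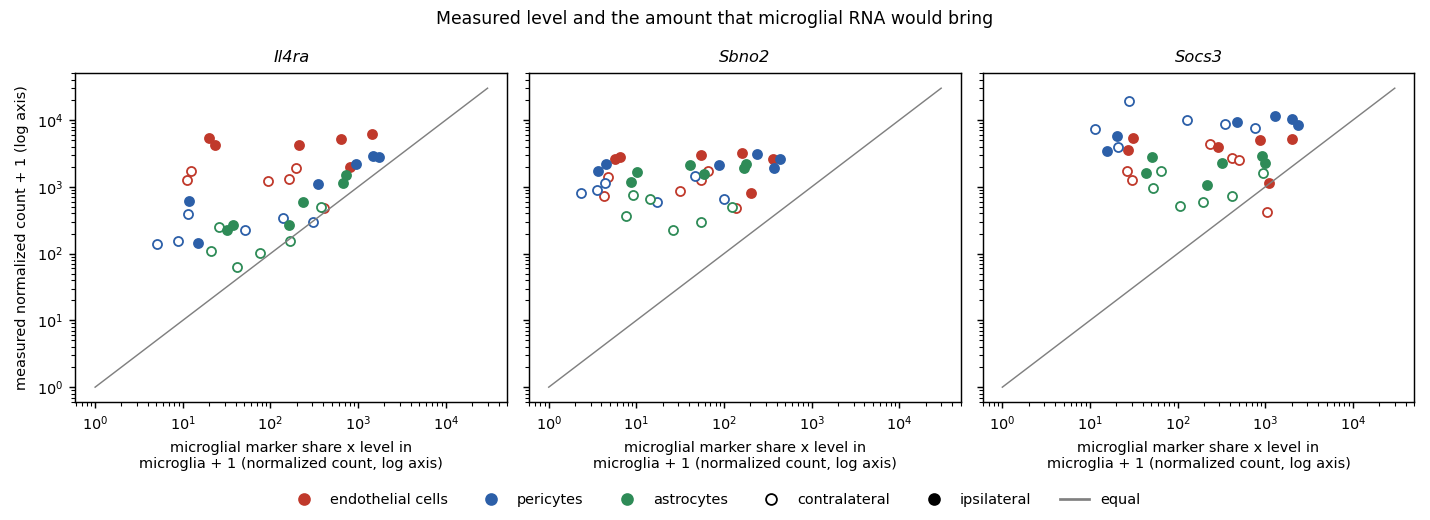
Measured level (y axis) of *Il4ra*, *Sbno2* and *Socs3* against the microglial marker share times the level in MG (x axis, both normalized count + 1 on log axes) in each EC, PC and AC library, with a line where both are equal. Points of *Il4ra* in PC and AC lie near the line where the share is high, and those of *Sbno2* lie above it in all 36 libraries.

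Among the feedback inhibitors *Socs2* rose in MG. It was at 3, 24.5 and 54 normalized counts in the contralateral and at 42, 89 and 309 in the ipsilateral libraries. The ranges overlap, 6 of 6 pairs were higher ipsilaterally, and contralateral replicates 5 and 6, at 3 and 4, lay near the floor. The log2 fold change was 2.45 ± 0.71 (SE, adjusted p = 0.0387), and 1.84 with 10 in place of 1 added to each value (adjusted p = 0.0246). The call was lost without replicate 1, 3, 4, 5 or 6 (adjusted p between 0.0598 and 0.103) and within replicates 1 to 4, where the log2 fold change was 1.80 (adjusted p = 0.0978). Without the filter on low values it was lost too. Together, 7 of 18 alternatives lost the call of *Socs2*. The highest value was that of ipsilateral replicate 2, which also had the highest summed neutrophil markers, 18851 beside 1641 to 5590 in the other ipsilateral and 94 to 1077 in the contralateral MG libraries. In MG monocyte and macrophage markers summed to 8614 to 13120 and 8982 to 22125, higher in 4 of 6 pairs. Their part in the change of *Socs2* was not tested.

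In EC, where *Socs2* had its highest level, it was at 494, 527 and 778 in the contralateral and at 341, 430 and 656 in the ipsilateral libraries, with 5 of 6 pairs lower. Its change of -0.36 on the log2 scale did not pass (adjusted p = 0.561), and it was -0.19 without the libraries that stand apart. In PC it was 0.67 (adjusted p = 0.383), and in AC 1.59 (adjusted p = 0.642), where contralateral replicate 1 was listed at 0. The AC change averaged 2.13 over pairs 1 to 4 and 0.50 over pairs 5 and 6.

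*Socs3* was not called in any cell type. In AC it was at 519, 838 (837.5) and 1715 in the contralateral and at 1065, 2238 (2237.5) and 2859 in the ipsilateral libraries. The ranges overlap, with 6 of 6 pairs higher and a log2 fold change of 1.14 ± 0.33 (SE, adjusted p = 0.258). *Socs3* rose there by 1.34 on average over pairs 1 to 4 and by 0.73 over pairs 5 and 6. In EC it was at 414, 2146 (2145.5) and 4309 against 1134, 4474 and 5461, with a log2 fold change of 1.07 (adjusted p = 0.431, 4 of 6 pairs higher). Without the 2 EC libraries that stand apart it was 0.99 (adjusted p = 0.0800). In pairs 5 and 6 of EC, tested alone, the change was 1.57 with adjusted p = 0.0359. In PC and MG, where *Socs3* was most abundant, the log2 fold changes were -0.18 (interval -0.95 to 0.59) and -0.38 (interval -1.34 to 0.57), and 1 of 6 and 3 of 6 pairs were higher. The MG value rested on ipsilateral replicate 2, at 2147 beside 13191 to 16227 in the others, and without it the change was 0.07 (adjusted p = 0.887).

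*Socs1* was not called. Its widest difference was in AC, from 12, 29.5 and 89 to 45, 69 and 123, higher in 6 of 6 pairs with a log2 fold change of 1.16 (adjusted p = 0.480). Over pairs 1 to 4 it rose there by 1.34 on average, and over pairs 5 and 6 by 0.80. In EC all 6 pairs were also higher, by 0.33 on average (adjusted p = 0.831), and by 0.17 without the libraries that stand apart. *Cish* was not called either, with log2 fold changes between -0.34 and 0.26. Its change in MG was -0.33, and 0.053 without ipsilateral replicate 2. In PC it was listed at 0 in 1 contralateral and 2 ipsilateral libraries and reached 296 in another, so that its interval ran from -3.67 to 2.99.

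Of the target genes, *Sbno2* rose in AC and PC. In AC it was at 228, 431 (430.5) and 760 normalized counts in the contralateral and at 1171, 1783 and 2185 in the ipsilateral libraries. The hemispheres did not overlap, and 6 of 6 pairs rose. The level was 4.03-fold higher, a log2 fold change of 2.01 ± 0.28 (SE, adjusted p = 0.00728). It averaged 2.31 over pairs 1 to 4 and 1.40 over pairs 5 and 6, and the call was lost without replicate 1 (1.85, adjusted p = 0.0523) or 2 (1.99, adjusted p = 0.0513).

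In PC *Sbno2* was at 601, 848 (847.5) and 1434 in the contralateral and at 1703, 2136 and 3130 in the ipsilateral libraries. The hemispheres again did not overlap. It rose by 1.34 ± 0.23 on the log2 scale (SE, adjusted p = 0.0164), with 6 of 6 pairs higher, and averaged 1.42 over pairs 1 to 4 beside 1.43 and 0.93 in pairs 5 and 6. The call was lost without replicate 4, 5 or 6 (adjusted p between 0.0652 and 0.0707) and within replicates 1 to 4 (adjusted p = 0.0895).

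In EC *Sbno2* was at 482, 1081 and 1751 in the contralateral and at 800, 2714 and 3155 in the ipsilateral libraries. Only ipsilateral replicate 1, which stands apart, lay in the contralateral range. The log2 fold change of 1.20 ± 0.37 (SE) did not pass (adjusted p = 0.185). Without the 2 libraries that stand apart it was 1.29 and called (adjusted p = 0.0107), and in the joint fit adjusted p was 0.0495. In MG, where the level was highest, the log2 fold change was 0.08 (adjusted p = 0.902, interval -0.65 to 0.81), and 0.43 (adjusted p = 0.135) without ipsilateral replicate 2, at 581 beside 1709 to 3086 in the others. *Pim1* was not called, with log2 fold changes of 0.13 in EC (0.40 without the libraries that stand apart), 0.72 in PC, 0.67 in AC and -0.30 in MG and adjusted p between 0.503 and 0.956.

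**Figure D4:**
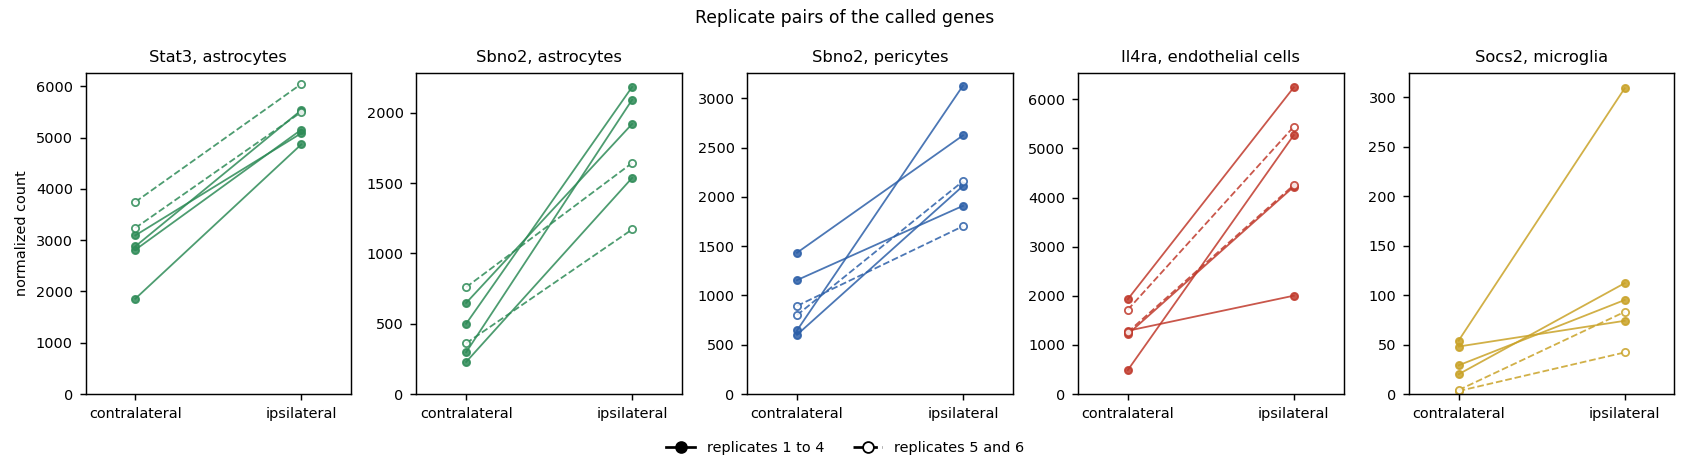
Normalized counts (linear axes from 0) of the 5 called changes in contralateral and ipsilateral libraries, joined by replicate number, with replicates 1 to 4 as filled points and replicates 5 and 6 as open points on dashed lines. All 30 lines rise, and the hemispheres overlap for *Socs2* in MG.

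Whether the stroke change differed among the cell types was tested directly. It did for 0 of the 10 genes (limma interaction F-test over 48 libraries, adjusted p between 0.134 and 0.993), against 0.66% of 15003 genes. With the replicate block it was again 0 of 10, against 1.81% of genes, and the F-test had adjusted p = 0.103 for *Sbno2* and 0.0848 for *Socs2*. Without the block 3 of the 10 had an unadjusted p under 0.05. These were *Sbno2* (0.00220), *Socs2* (0.0252) and *Socs3* (0.0396). Between single pairs of cell types, the change differed for 0.273% of all genes in EC against MG, 0.727% in PC against MG and 0.293% in AC against MG. With the replicate block it differed for 0.787% in EC against MG and 0.767% in AC against MG. The pair of cell types farthest apart for *Sbno2* was AC against MG, with changes that differed by 1.93 ± 0.48 on the log2 scale (SE, adjusted p = 0.0594), and this passed with the replicate block (adjusted p = 0.0493). For *Socs2* the change in EC lay below that in MG by a difference of -2.81 ± 0.92 (adjusted p = 0.220), which also passed with the block (adjusted p = 0.0482). These p-values are adjusted over genes and not for the choice among pairs of cell types. The change of *Stat3* in AC and MG differed by 0.96 ± 0.39 (adjusted p = 0.423) and that of *Il4ra* in PC and MG by 1.67 ± 0.74 (adjusted p = 0.331). Without the 3 libraries that stand apart the interaction of *Sbno2* had adjusted p = 0.0553.

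The other genes of the pathway are described from lists chosen with earlier results known, 63 genes in all. None of the 8 other JAKs and STATs was regulated in any cell type (1 had an unadjusted p under 0.05 in EC, PC and AC each and 2 in MG), nor any of the 4 other SOCS genes (0 in EC and PC, 1 in AC and MG). Of the cytokines that activate STAT3, 1 of 5 tested rose in EC, 2 of 6 rose in PC, 1 of 6 rose and 1 fell in MG, and 0 of 6 were regulated in AC (4 at an unadjusted p under 0.05), beside the shares of all genes given above. In PC, *Il6* rose from 230 ± 139 to 2605 ± 1585 normalized counts (log2 fold change 3.50, adjusted p = 0.00379), and *Il11* from 2.33 to 211 (adjusted p = 0.0158). In AC, *Il6* was at 15.3 and 104 and was called with the replicate block (adjusted p = 0.0474, and 0.197 without the block). *Il11* in AC was at 1.5 and 102 (log2 fold change 5.22, adjusted p = 0.0111), higher in 6 of 6 pairs, and the hemispheres did not overlap. It passed the limits of fold change and adjusted p. It was not called only because neither hemisphere had all its libraries above the minimum count of the call. In EC, *Csf3*, a growth factor for neutrophils, rose by 4.43 on the log2 scale (adjusted p = 0.0398). In MG, *Osm*, which encodes oncostatin M, rose from 2084 ± 878 to 4498 ± 1221 (log2 fold change 1.16, adjusted p = 0.00828), while *Clcf1*, a cytokine of the ciliary neurotrophic factor receptor, fell by 1.80 (adjusted p = 0.0165).

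Receptor chains that activate STAT3 changed in MG, where 4 of the 9 tested fell and none rose, against 6.27% of all genes that fell. They were *Csf3r*, the receptor for *Csf3* (6746 ± 752 to 2192 ± 962, log2 fold change -1.77), *Il6ra*, the interleukin-6 receptor (-1.70), *Il10ra*, the interleukin-10 receptor (-1.58), and *Lifr*, the leukemia inhibitory factor receptor (-1.11), with adjusted p between 0.00235 and 0.00866. The median of the list in MG was -1.06. The same MG libraries had a lower summed level of the 10 microglial markers in the ipsilateral hemisphere (753126 to 838945 contralateral, 431994 to 690727 ipsilateral, 6 of 6 pairs), and its part in these decreases was not tested. In EC, PC and AC 0 of 10 receptor chains were regulated, with 3, 4 and 1 at an unadjusted p under 0.05. With the replicate block *Osmr*, the oncostatin M receptor, was called in AC (469 to 2305 normalized counts, log2 fold change 2.53, adjusted p = 0.000581, and 0.0668 without the block).

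Of the 10 other negative regulators, *Ptpn2*, a phosphatase that acts on Janus kinases and STATs, rose in PC (475 ± 60.6 to 899 ± 192, adjusted p = 0.0320, 898.5 before rounding), and *Pias1*, *Pias3* and *Sh2b3* fell in MG by 0.67, 1.16 and 1.24 on the log2 scale, of which *Pias3* was lost with the replicate block (adjusted p = 0.0610, and 0.0317 without it). None was regulated in EC or AC, with 1 and 2 at an unadjusted p under 0.05. Of the partners of *Il4ra*, *Il2rg*, the shared gamma chain, rose in MG from 145 ± 42.5 to 784 ± 399 (log2 fold change 2.31, adjusted p = 0.00143). *Il13ra1*, its partner in other cells, was called in AC with the replicate block (1.87, adjusted p = 0.00108, and 0.190 without the block). Of the 3 STAT6 target genes tested, *Arg1* and *Chil3* rose in MG, by 2.62 and 2.75 on the log2 scale, and none was regulated in EC, PC or AC, with 2, 0 and 3 at an unadjusted p under 0.05. *Chil3* in EC was called with the replicate block (5.52, adjusted p = 0.0369, and 0.156 without it). Neutrophil markers were higher ipsilaterally in 6 of 6 pairs of both MG and EC. The part of neutrophils, monocytes and macrophages in the rises of *Osm*, *Il2rg*, *Arg1* and *Chil3* was not tested. Of the relatives *Pim2*, *Pim3* and *Sbno1*, *Pim2* fell in MG by 1.79 (adjusted p = 0.0490, and 0.0622 with the block).

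Of the 13 other STAT3 target genes, 4 rose in AC and none fell, against 0.334% of all genes that rose. The median log2 fold change of the 13 was 1.54 in AC, beside 0.68 in EC, 0.85 in PC and 0.50 in MG. The change of this list was not tested between cell types. The 4 were *Lcn2*, an iron-scavenging secreted protein (306 ± 224 to 3664 ± 1274, log2 fold change 3.89), *Timp1*, an inhibitor of matrix proteases (3.08), *Bcl3*, a regulator of NF-κB (2.49), and *Serpina3n*, a protease inhibitor of reactive astrocytes (5912 ± 4283 to 22212 ± 3662, 2.15), with adjusted p between 0.00379 and 0.0178. With the replicate block 9 of 13 were called, against 1.25% of all genes that rose, *Cebpd*, *Myc*, *Mcl1*, *Ccnd1* and *Lrg1* in addition. In PC 3 of 13 rose, *Lrg1*, *Lcn2* and *Bcl3*, by 2.26, 2.58 and 2.07, and *Timp1* was called with the block (2.07, adjusted p = 0.0344, and 0.103 without it). In MG 3 of 13 rose, *Lrg1*, *Lcn2* and *Timp1*, by 2.26, 3.72 and 3.37. The part of neutrophils, monocytes and macrophages in the rises of this list was not tested in any cell type. In EC 0 of 13 were regulated (5 at an unadjusted p under 0.05), and with the block *Timp1* and *Lcn2* were called, against 0.378% of all genes that rose.

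Over the 24 paired differences, 6 in each cell type, the likeness of the genes was described by Pearson's r. No test was made, since pairs of different cell types may come from the same mice. The 3 genes most like a member among 11356 genes are given with r and, after it, r without the 3 pairs that hold the libraries that stand apart, which leaves 21 pairs. *Stat3* was most like *Sp2* (0.95 and 0.79), *Arhgef2* (0.93 and 0.72) and *Elk4* (0.92 and 0.59). *Socs3* was most like *Csrnp1* (0.91 and 0.83), *Nr4a1* (0.90 and 0.79) and *Ddx39b* (0.88 and 0.73), and *Sbno2* was most like *Zfp740* (0.91 and 0.83), *Arhgap17* (0.88 and 0.74) and *Fancc* (0.88 and 0.75). The nearest genes of these 3 members thus had a lower r in the 21 pairs. *Il4ra* was most like *Slco2b1* (0.85 and 0.82), *Tgfbr2* (0.84 and 0.79) and *Inpp5d* (0.84 and 0.82). For *Jak2*, *Socs1*, *Socs2*, *Cish* and *Pim1* r lay between 0.66 and 0.81. The nearest genes were *Ppfia1*, *Rbm26* and *Arih1* for *Jak2*, *Hnrnpab*, *Cltc* and *Slfn9* for *Socs1*, *Cp*, *Lcn2* and *Slc25a24* for *Socs2*, *Dmtn*, *Srbd1* and *Il18bp* for *Cish*, and *Trim12a*, *Klf4* and *Ocel1* for *Pim1*. Among the 10 genes themselves, r was 0.88 for *Stat3* and *Socs3*, 0.84 for *Stat3* and *Sbno2* and 0.71 for *Socs3* and *Sbno2*. In the 21 pairs these were 0.67, 0.75 and 0.42.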

How the data were processed

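RNA of 48 sorted cell samples, 6 per cell type and hemisphere, was sequenced with the SMART-Seq HT kit. Per the labels and the methods of the study, the authors trimmed reads with Trimmomatic 0.38, aligned them to GRCm38 with STAR 2.6.1d, counted those on exons with featureCounts 1.6.3 without reads of several genes or places, and normalized the counts with DESeq2 1.18.1. The deposited values are rounded normalized counts, used as a score and not as raw counts, so the planned count tests were not run. Strand was not used, as far as the sources say.

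All tests were made here in R 4.3.3 with limma 3.58.1 (lmFit, eBayes with a trend, two-sided) on log2(normalized count + 1), a scale that understates changes of low genes, in 1 fit per cell type without a block or in a joint fit of 48 libraries, on genes averaging 10 or more, with Benjamini-Hochberg adjustment over all genes tested. The fit was tested on simulated data. Summaries and plots used Python 3.11.15. The paper took contralateral hemispheres of the stroke mice as control. Equal replicate numbers of the hemispheres were taken as pairs of the same mice, which the sample labels do not state. The deviations of such pairs had a mean r of 0.23 in EC, 0.23 in PC, 0.38 in AC and 0.14 in MG, against -0.04, -0.04, -0.08 and -0.03 for different numbers. Single pairs ran from 0.01 to 0.55 in EC, -0.07 to 0.42 in PC, 0.02 to 0.66 in AC and -0.03 to 0.35 in MG. Lengths per kb are unions of exons in the GENCODE annotation of GRCm38 within the coordinates of the deposited table. In that annotation 5 of the 10 genes have the same coordinates as in the deposited table, whose coordinates are printed. Of the value columns, all were mapped to samples.

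The members and lists were chosen with earlier results of these data known. All members are named. Of each list, at most 4 regulated genes per cell type are named, those with the smallest p, and for each member the 3 genes most like it in paired differences, which for *Jak1* are not reported here. Genes whose call changes with the replicate block, and *Il11* in AC, are named in addition and were chosen after their values were seen. Alternatives were other pseudocounts, filters, scaling, blocks, joint fits, criteria, sample titles and left-out replicates. Replicates 5 and 6 alone, and fits without libraries that stand apart, were chosen after seeing the data.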

Additional observations from a re-analysis of the deposited data

Results flagged for a closer look

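In 13 of 80 groups of 6 libraries, a gene had a highest or lowest library farther from the others than Dixon's 95% critical value allows (gap over range, on the log2 scale), and chance does so in about 1 of 20 groups. Of the 13, 10 lie in the 3 libraries that stand apart over all genes. In contralateral EC replicate 2, *Stat3* was at 1055 (others 4196 to 4615) and *Il4ra* at 487 (others 1218 to 1930). In ipsilateral EC replicate 1, *Stat3* was at 2738 (others 5326 to 6605), *Jak1* at 1735, *Il4ra* at 2002, *Socs3* at 1134 and *Sbno2* at 800 (others 2605 to 3155). In ipsilateral MG replicate 2, *Stat3* was at 1654, *Socs3* at 2147 (others 13191 to 16227) and *Sbno2* at 581 (others 1709 to 3086). All 10 were the lowest value of their group. The other 3 were *Jak1* in contralateral PC replicate 1 (1214, others 2327 to 3242) and *Socs2* in AC replicate 1 of both hemispheres, listed at 0 in the contralateral (others 20 to 112) and at 31 in the ipsilateral library (others 73 to 112).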

How the results depend on the processing

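Of 698 alternative values of the stroke change of single genes, 630 kept their direction and their side of the threshold, 30 lost the threshold, 10 gained it and 28 changed sign. None of the 28 belonged to a called change or passed the threshold. With libraries left out, the log2 fold change ran from -0.32 to 0.012 for *Cish* and -0.063 to 0.40 for *Pim1* in EC, from -0.91 to 0.39 for *Cish*, -0.13 to 0.28 for *Jak1* and -0.23 to 0.19 for *Jak2* in PC, from -0.020 to 0.20 for *Jak1*, -0.13 to 0.33 for *Jak2* and -0.050 to 0.67 for *Cish* in AC, and from -0.14 to 0.21 for *Stat3*, -0.16 to 0.24 for *Socs1*, -0.66 to 0.088 for *Socs3*, -0.75 to 0.065 for *Cish* and -0.046 to 0.43 for *Sbno2* in MG. Within replicates 1 to 4 it was 0.59 for *Cish* and -0.32 for *Jak2* in PC, -0.21 for *Cish* in AC and -0.20 for *Sbno2* in MG. Within replicates 5 and 6 it was -0.13 for *Jak2* in AC and 0.19 for *Stat3*, -0.0033 for *Socs1* and 0.72 for *Socs3* in MG. Adding 10 in place of 1 gave 0.035 for *Cish* in PC. In EC, leaving out a replicate gave 0 to 1 regulated genes of 10, replicates 1 to 4 gave 0, replicates 5 and 6 gave 2, and leaving out contralateral replicate 2 and ipsilateral replicate 1 gave 2. In PC the replicate block and the joint fit gave 2, a left-out replicate 0 to 1 and replicates 5 and 6 gave 0. In AC the joint fit and no filter gave 1, a left-out replicate 0 to 2, replicates 1 to 4 gave 1 and replicates 5 and 6 gave 0. In MG no filter and replicates 1 to 4 gave 0, a left-out replicate 0 to 2, and replicates 5 and 6, or the loss of ipsilateral replicate 2, gave 2. With the cell types of the sample titles PC and MG each had 5. The cause was not tested, beyond fewer libraries where some were left out. The block changed no other call of the 10 genes within a cell type. The interaction count stayed at 0 in 13 alternatives, and the count of differing levels was 9 without replicate 5 (*Jak2* lost), 8 within replicates 1 to 4 (*Jak2* and *Cish* lost) and 9 within replicates 5 and 6 (*Socs1* lost). The edgeR and DESeq2 tests were not run, since the values are not counts. Depth limits *Socs2*, *Pim1* and *Cish*, which had libraries near the floor of 3 reads.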
